A study of Mus musculus with 3 samples.

Results

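A small set of tenocytes, the fibroblasts of the tendon body, carried many transcripts of at least 1 of 4 inflammation-related genes, Slpi, Cxcl3, Csf2 and Il4i1. They were chosen by these measured values: a cell was kept when it had 1000 to 5000 detected genes and at most 10% mitochondrial molecules, called a tenocyte when it had at least 10 molecules of Tnmd, Fmod, Kera and Cilp2 together and more of these than of 6 genes of the epitenon (the sheath around the tendon), and no more than traces of myeloid or endothelial genes, and chosen when its molecules of the 4 genes summed to at least 5. This sum is called the rule sum below, and the chosen cells are called rule-positive tenocytes. They numbered 147 of 8571 tenocytes and of 19709 kept cells: 105 of 5055 tenocytes in the 6 M WT library, 39 of 2579 in the 6 M DTR library and 3 of 937 in the 21 M B6 library.

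The study compared flexor digitorum longus tendons by single-cell RNA sequencing after depletion of Scleraxis-lineage cells and in aging. 6 M DTR mice were Scx-Cre+; DTR F/+, in which Cre driven by the Scleraxis promoter switches on the diphtheria toxin receptor; 6 M WT mice were their Scx-Cre-; DTR F/+ littermates, which carry the same floxed receptor allele without Cre. Both received 5 daily injections of diphtheria toxin into the hind paw at 3 months of age and were taken at 6 months, whereas the 21 M B6 mice were untreated C57BL/6J animals of 21 months; all 3 groups have the C57BL/6J background in the labels, which give 3 months as the age of the 2 toxin-treated groups. Each group was 1 library made from 16 pooled tendons of both sexes, so there are no replicates, no test between libraries is possible, and intervals below are 95% intervals that cover counting error only. Digestion lasted 120 min for 6 M WT and 90 min for the other 2 groups, so genotype and digestion time cannot be told apart in a difference of 6 M WT from 6 M DTR. In a difference of the 21 M B6 library from either of these, genotype, toxin and age cannot be told apart, nor from 6 M WT the digestion time. The libraries held 15536 barcodes and 148149903 molecules (6 M WT), 16099 and 123918145 (6 M DTR) and 12273 and 92707026 (21 M B6), where a molecule is a unique molecular identifier (UMI), and 8357, 6554 and 4798 cells were kept, with medians of 13008, 12328 and 12914 UMIs per cell.

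An inflamed tissue makes acute-phase proteins such as lipocalin 2 and the serum amyloids, chemokines that draw in neutrophils and monocytes, and proteases that cut the matrix. Fibroblasts can do all of this when interleukin-1, tumor necrosis factor or bacterial products switch on NF-kappaB and C/EBP factors. Tenocytes otherwise make the collagen fibrils of the tendon and the small proteoglycans that space them. Of the 4 rule genes, Slpi encodes a secreted inhibitor of neutrophil serine proteases, Cxcl3 a chemokine for neutrophils, Csf2 the cytokine GM-CSF that sustains myeloid cells, and Il4i1 a secreted amino acid oxidase known from antigen-presenting cells.

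The cells stood at the end of a long tail. In 6 M WT, 4446 of 5055 tenocytes had a rule sum of 0, 398 had 1, 62 had 2, 29 had 3 and 15 had 4, and the number at 5 was 13. The 105 rule-positive tenocytes reached from 5 to 628 with a median of 13, and 18 of them were over 30. No gap separated them from the rest. The 25 cells just inside the threshold, with a sum of 5 or 6, held 1776 CPM of Lcn2 (the UMIs of a gene in a set of cells, scaled to 1000000 UMIs of that set), 4649 of Mmp3 and 4232 of Fmod. The 44 cells just outside it, with a sum of 3 or 4, held 1127 CPM of Lcn2, 3458 of Mmp3 and 5131 of Fmod, and the 4446 cells at 0 held 150, 595 and 6477. The border is a setting, not a natural break. Hmox1 was at 963 CPM just inside, 226 just outside and 228 at a sum of 0.

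**Figure D1:**
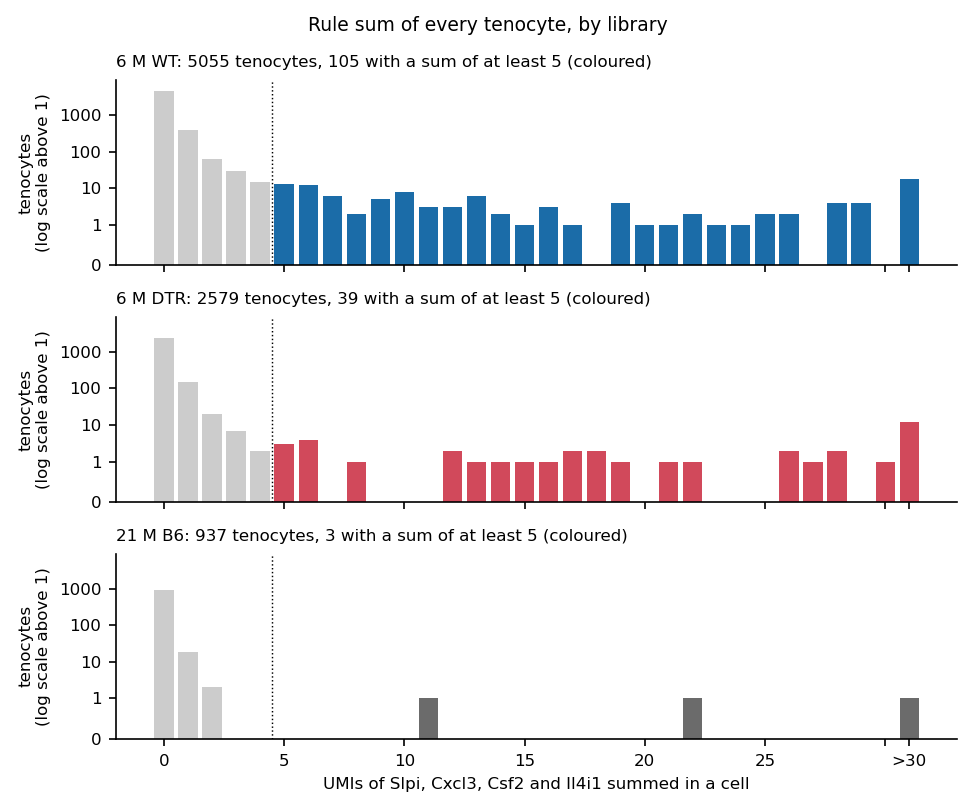
Number of tenocytes (y axis, log scale above 1) at each rule sum, the UMIs of Slpi, Cxcl3, Csf2 and Il4i1 summed in a cell (x axis, sums over 30 pooled), in each library, with sums of at least 5 coloured. In 6 M WT 4446 tenocytes sit at 0 and the counts thin out without a gap through the threshold to 18 cells over 30.

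The 4 rule genes were rarely found in the same cell. Slpi in 6 M WT was detected in 74 of the 105 cells, Cxcl3 in 21, Csf2 in 21 and Il4i1 in 11, and 88 cells had a UMI of only 1 of the 4. A pair of the genes was detected in 13 cells, 3 of them in 3 cells and all 4 in 1 cell, which had 11 UMIs of Slpi, 1 of Cxcl3, 2 of Csf2 and 2 of Il4i1. Slpi gave the most UMIs of the 4 in 69 cells, Cxcl3 in 15, Csf2 in 14 and Il4i1 in 7. In 71 of the 105 cells Slpi alone reached 5 UMIs. The highest Slpi count was 352 UMIs in a cell of 20999 UMIs that also had 282 UMIs of Lcn2 and none of Mmp3, and the next was 157 UMIs in a cell without any Lcn2. Cxcl3 rested on few cells, since 2 cells with 608 and 415 UMIs held 88.0% of its 1162 UMIs. Csf2 was spread more evenly, with 45 UMIs at most and 5 or more in 17 cells. Il4i1 reached 29 UMIs at most and 5 or more in 8 cells. Across the 105 cells, which share 1 library and differ in depth, Spearman's rho between the CPM of Slpi and of Cxcl3 was -0.37 and that of Slpi and Csf2 was -0.36, values that a rule on the sum of the genes favours.

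The rule-positive tenocytes were deeply sampled cells. Their median was 20245 UMIs and 3895 genes per cell (8667 to 35295 UMIs), against 12990.5 UMIs and 3080 genes in the other 4950 tenocytes of 6 M WT, and a rule on raw UMIs selects for depth. A median of 2.29% of their UMIs was mitochondrial, against 2.78% in the others. The 4 tenocyte genes, which the rule used, made up a median of 25.1 per 10000 UMIs against 70.8. Kept cells of at least 5000 UMIs were also thinned at random to 5000 UMIs, and the limits for tenocytes and the rule sum were applied again. Then 23 of 4427 tenocytes of 6 M WT qualified (0.520%, 95% exact binomial interval 0.330 to 0.779) and 20 of 2255 of 6 M DTR (0.887%, 0.543 to 1.37), where the unthinned shares were 2.08% (1.70 to 2.51) and 1.51% (1.08 to 2.06). The order of the 2 libraries turned with depth, so these shares give no order.

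Comparisons of expression between the rule-positive tenocytes and the other tenocytes of the same library follow as descriptions without a test, since the rule chose the cells on the same counts. Of the 2800 genes with at least 50 CPM in either set of cells in 6 M WT, 64 (2.29%) were at least 2-fold higher in the rule-positive cells and 87 (3.11%) at least 2-fold lower, and the median log2 ratio of all of them was 0.03. After the rule genes, the genes with the highest ratios were Ccl5, Chil1, Mmp12, Mmp3, Lcn2, Aldh1a3, Saa3, Tnf, Hmox1, Cxcl2 and Ptgs2. Several of these rested on a single cell. Mmp12, the macrophage elastase, had 118 of its 128 UMIs in 1 cell, and its ratio was 13.9 with that cell and 1.09 without it. Tnf had 90 of 107 UMIs in 1 cell, and its ratio was 5.78 with it and 0.93 without it. Ptgs2, which encodes the inducible cyclooxygenase, went from 4.91 to 2.60 in the same way, and its log2 ratio was -0.14 in the cells without Lcn2. That of Aldh1a3 was -0.72 in the 12 male cells. In 6 M WT, the genes named below as higher kept at least a 2-fold ratio without their richest cell unless said otherwise.

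Lcn2 and Mmp3, the further markers of the label, were high in part of the cells and absent from the rest. Lcn2, which encodes the iron-siderophore binding protein lipocalin 2, ranged from 0 to 332 UMIs per rule-positive cell with a median of 3, and its level was 2429 CPM against 191 CPM in the other tenocytes, a ratio of 12.7 (12.3 to 13.2). It was at 0 in 42 of the 105 cells and at 20 UMIs or more in 43. Mmp3, which encodes the matrix protease stromelysin-1, ranged from 0 to 1989 UMIs with a median of 6 and stood at 8559 CPM against 652 (13.1-fold, 12.9 to 13.4), with 39 cells at 0 and 50 at 20 UMIs or more. Saa3, an acute-phase serum amyloid made by fibroblasts and macrophages, ranged from 0 to 766 UMIs with a median of 0 and stood at 3509 CPM against 584 (6.01-fold), with 63 cells at 0 and 26 at 20 or more. In the 12 male cells the log2 ratios were -3.27 for Lcn2, -1.12 for Mmp3 and -2.35 for Saa3. After thinning every cell to 2000 UMIs, Lcn2 was still detected in 43.8% of the rule-positive cells (34.1 to 53.8) and in 11.3% of the others (60% and 26% before thinning), Mmp3 in 51.4% and 14.9% (62.9% and 32.0%), and Saa3 in 29.5% and 7.78% (40.0% and 17.0%). The acute-phase label therefore described a part of the cells, and 42 of 105 carried no Lcn2 UMI.

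That part was also seen when the 5055 tenocytes of 6 M WT were clustered without the 4 rule genes, Lcn2 and Mmp3. Of 6 clusters, 1 cluster of 183 cells (3.62% of the tenocytes) held 52 of the 105 rule-positive cells, which made up 28.4% of it (22.01 to 35.5), against between 0.104% and 2.42% of the other 5 clusters. It is called the Lcn2-high cluster below, after a gene left out of the clustering. Its leading genes by fold, with the left-out genes ranked too, were Ccl5, Cxcl3, Slpi, Lcn2, Mmp3, Chil1, Saa3, Hmox1, Slc7a2 and Saa1. The other 53 rule-positive cells were spread over the rest, with 22 in the cluster led by Gbp6, Tfpi2 and Irgm1, 15 in that led by Serpinb7, Egln3, Npy and Slurp1, 8 and 7 in a further pair and 1 in the last. Of the 43 cells with at least 20 UMIs of Lcn2, 40 were in the Lcn2-high cluster. On average 26.5% of the 20 nearest neighbours of a rule-positive tenocyte were rule-positive too, against 1.69% for the other tenocytes. This mean was 51.2% for the cells with at least 20 UMIs of Lcn2 and 9.40% for those without any, and 31 of the 105 cells had no rule-positive neighbour at all.

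The 52 cells inside this cluster and the 53 outside differed in level in most genes of the label. Fth1, the ferritin heavy chain that stores iron, was at 39469 CPM inside and 11967 outside, against 8108 in the other tenocytes outside the cluster. Lcn2 was at 4059 CPM inside and 279 outside, Mmp3 at 13731 and 1735, and Saa3 at 5212 and 1263. Hmox1, which encodes the inducible heme oxygenase, was at 1974 and 358 CPM, and Timp1, an inhibitor of matrix metalloproteinases, at 3930 and 621. Of the matrix genes, Fmod (fibromodulin) was at 1844 CPM inside and 5953 outside, Col1a1 (type I collagen) at 844 and 5221, and Chad (chondroadherin, an integrin-binding protein of the matrix) at 266 and 2022. Others were higher inside: Thbs4 was at 5276 and 2969 CPM, Dcn at 34782 and 29605 and Prg4 at 13776 and 10571. Slpi itself was at 1041 and 668 CPM, so that a high count of Slpi was found both with and without the other genes. Il4i1 was at 92.99 CPM inside and 0 outside. Scx, the lineage factor whose promoter drives the Cre of the study, was at 53.6 CPM inside and 46.4 outside, against 91.9 in the other tenocytes outside the cluster.

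Conversely, the cluster held 131 tenocytes below the rule sum of 5. In these Lcn2 was at 2760 CPM, Fth1 at 31726, Mmp3 at 5022 and Saa3 at 3176, with Slpi at 12.6. Their levels of these genes lay between those of the rule-positive cells of the cluster and those of the other tenocytes outside it. The median depth was 23214.5 UMIs for the rule-positive cells inside, 17235 for those outside, 15388 for the others inside and 12935 for the others outside. The clusters were made from these cells, so the differences between them are a description.

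**Figure D2:**
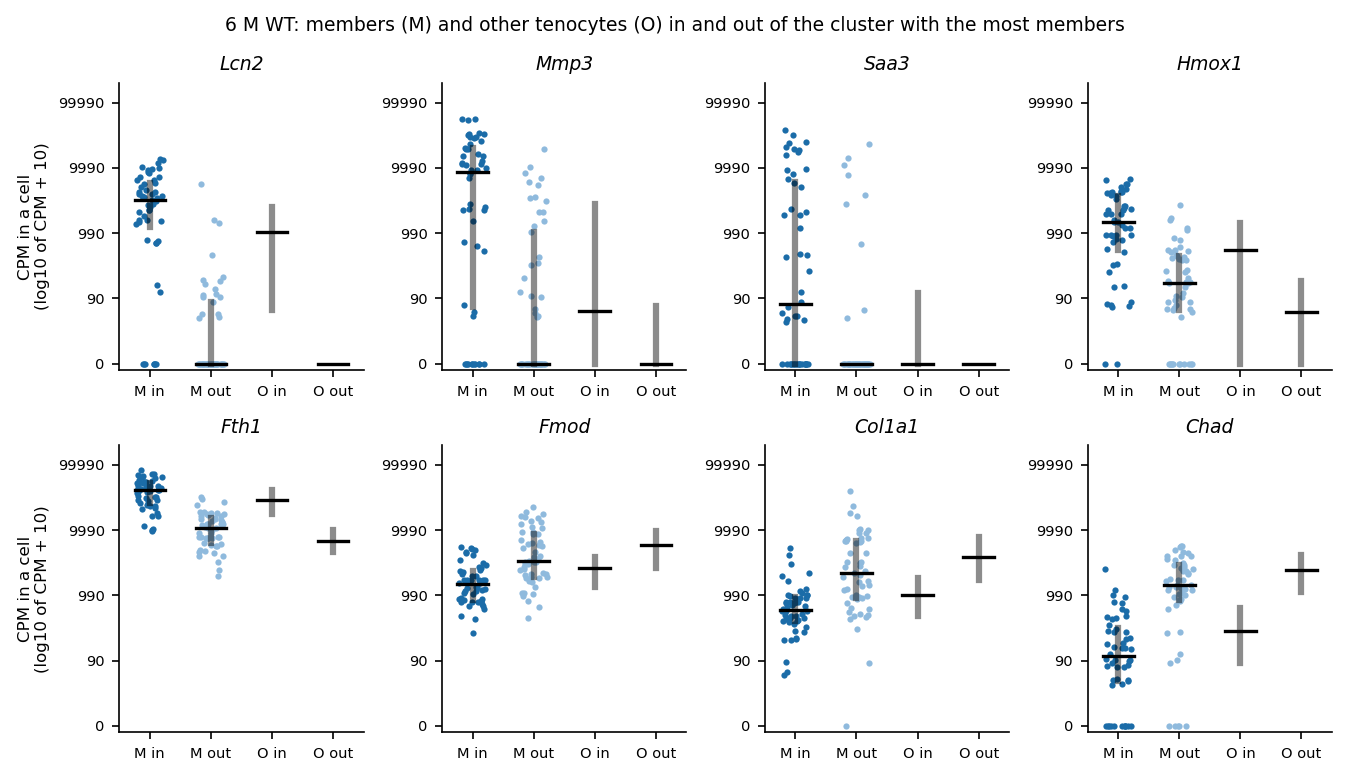
CPM of 8 genes in single 6 M WT tenocytes (y axis, log10 of CPM + 10, with the CPM at each tick) for rule-positive cells in (M in, 52) and out of (M out, 53) the Lcn2-high cluster, with each cell as a point, and for the other tenocytes in (O in, 131) and out (O out, 4819) of it; black lines are medians and gray bars run from the lower to the upper quartile. Lcn2, Mmp3, Hmox1 and Fth1 are high and Fmod, Col1a1 and Chad low in the cells of the cluster, whether rule-positive or not, although the median of Mmp3 is lower in those that are not.

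Among the acute-phase and innate defense genes, 14 of the 21 listed genes had at least 20 CPM in either set of cells; 6 were at least 2-fold higher, 1 was at least 2-fold lower, and the median log2 ratio was 0.85, or -1.38 in the 12 male cells. Over the 5452 genes with at least 20 CPM, 1.8% were higher and 3.12% lower. Besides Lcn2 and Saa3, the higher genes were Chil1 (533 CPM against 29.7), a chitinase-like lectin of which 37.5% of the UMIs came from 1 cell, and Cfb (380 against 92.3), the complement factor B of the alternative pathway. The log2 ratio of Cfb was -0.65 in the male cells and -1.13 in the cells without Lcn2. That of Chil1 was 0.076 in the cells where a rule gene other than Slpi gave the most UMIs. No UMI of Chil1 was found in the 12 male cells, against 17.3 CPM in the other male tenocytes. Saa1 and C3, named after their values were seen, completed the higher ones, with 3725 CPM against 1135 and 993 against 333. In the 12 male cells Saa1 was at 533 against 1063 CPM (0.50-fold, 0.41 to 0.61). Hp (haptoglobin, which binds free hemoglobin) was the lower one, at 28.1 CPM against 75.5, and the liver genes Orm1 and Orm2 were at 0. Saa1 and Saa2 are near-identical copies, so the split of reads between them is uncertain, as it is for Hba-a1 and Hba-a2 and for Fth1, which has many processed copies.

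The chemokine list had the highest median of the lists outside the rule and marker genes. Of 11 measured genes, 8 were at least 2-fold higher and 1 was lower, with a median log2 ratio of 1.27. Cxcl2, a ligand of the neutrophil receptor CXCR2, ranged from 0 to 843 UMIs with a median of 2 and was at 3395 CPM against 624 (5.44-fold). Ccl2 and Ccl7, the monocyte chemokines, were at 10349 against 3606 CPM and at 2448 against 1015, and Cxcl1, which like Cxcl2 acts on neutrophils, was at 7658 against 3682 and at 1.94-fold without its richest cell; these 3 were named after their values were seen. Cxcl14, a chemokine of epithelia and fibroblasts, was at 536 against 179 CPM, with a log2 ratio of -0.59 in the cells without Lcn2. Ccl5, a chemokine for T cells and monocytes, stood at 262 against 2.91 CPM but was detected in only 10 of the 105 cells, and 1 of them held 33.3% of its UMIs. Cxcl10, the interferon-induced chemokine for T cells, was the lower one, at 5.72 against 68.2 CPM.

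Cytokines and their receptors had ratios nearer to 1. Of 12 measured cytokines and growth factors, 3 were at least 2-fold higher and none was lower, with a median log2 ratio of 0.50; these were Tnf, Ereg and Lif. Ereg (epiregulin, a ligand of the EGF receptor) was at 415 against 151 CPM and Lif (leukemia inhibitory factor) at 62.4 against 25.8, or 1.96-fold without its richest cell. The log2 ratio of Ereg was -1.27 in the male cells and -0.074 in the cells without Lcn2, where that of Lif was -0.082. Il6 was at 68.6 against 125 CPM, a ratio of 0.55, but its log2 ratio was 1.04 in the 12 male cells. In 6 M DTR Il6 was at 113 against 80.4 CPM, a ratio of 1.41, with 32.1% of its 81 UMIs from 1 cell. Of 14 receptors of cytokines and bacterial products, 2 were higher and 1 was lower with a median of 0.01. The higher ones were Tnfrsf1b, a TNF receptor, at 97.7 against 37.2 CPM, and Il1rl1, the interleukin-33 receptor, at 45.8 against 5.19, of which 62.5% came from 1 cell. Lifr was lower, at 58.6 against 129 CPM, and Tlr4 was at 13.8 against 24.8.

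The list of NF-kappaB factors, inhibitors and targets had a median log2 ratio of -0.11 over 23 measured genes, or 0.37 in the male cells. Of these genes 1 was higher and 2 were lower. The higher one was Sod2, the mitochondrial superoxide dismutase, at 906 against 412 CPM. Tnfaip6, which encodes a hyaluronan-binding protein, was at 48.6 against 98.1 CPM and Map3k8, a kinase of this pathway, at 34.8 against 79.2. The interferon list had a median of -0.78 over 6 measured genes with 1 lower (Gbp7, at 7.63 against 20.3 CPM, with a log2 ratio of 0.013 in the male cells). Its summed level was 138 CPM in the rule-positive cells inside the Lcn2-high cluster and 872 in those outside, against 191 and 689 in the other tenocytes inside and outside it. For MHC class I the median was -0.22 over 9 genes, with H2-Q4 lower at 39.1 against 83.4 CPM. Heat shock (14 genes, with 0 past 2-fold in either direction) and endoplasmic reticulum stress (14 genes, of which Sdf2l1 was higher, at 1.86-fold without its richest cell) had medians of -0.01 and 0.00.

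In the antioxidant and iron list 7 of 15 measured genes were at least 2-fold higher and none was lower, with a median of 0.61. Fth1 ranged from 34 to 1918 UMIs with a median of 415 in the rule-positive cells, against a median of 90 in the others, and stood at 27613 against 8837 CPM (3.12-fold, 3.10 to 3.15). It was the second most abundant nuclear transcript of these cells, after Dcn (decorin) with 32550 CPM and before Malat1, Mt1 and Prg4 (lubricin). Hmox1 was at 1277 against 232 CPM (5.52-fold, 5.29 to 5.75) and was detected in 54.3% against 21.1% of the cells thinned to 2000 UMIs (87.6% and 53.2% before thinning). In the 12 male cells Hmox1 was at 186 against 191 CPM (0.97-fold, 0.68 to 1.34). Fth1 in the male cells was at 11253 against 8260 CPM (1.36-fold, 1.31 to 1.42), short of 2-fold. Nqo1, a quinone reductase, was at 43.4 against 13.9 CPM and Srxn1 (sulfiredoxin) at 139 against 62.3, both targets of the oxidative stress factor NRF2, but the log2 ratio of Srxn1 was -0.15 in the male cells. That of Nqo1 was 0.45 in the cells where a rule gene other than Slpi gave the most UMIs. The ferritin light chain Ftl1, named after its values were seen, was at 3272 against 2139 CPM, a ratio of 1.53 that fell short of 2.

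Proteases of the matrix and their inhibitors had no common direction, with a median of -0.16 over 17 measured genes and 3 of them higher: Mmp3, Mmp12 and Timp1. Timp1 was at 2504 against 594 CPM (4.21-fold, 4.09 to 4.33), but at 342 against 580 in the male cells. Timp3, a matrix-bound inhibitor of the same family, was at 469 against 862. Mmp13, a collagenase named after its values were seen, had 1 UMI in the 105 cells. Of 7 measured genes of prostaglandin and nitric oxide synthesis 4 were higher and none was lower, with a median of 1.02. Slc7a2, a carrier of arginine, was at 717 against 157 CPM, and Nos2, the inducible nitric oxide synthase that uses it, was at 144 against 53.2, or 1.88-fold without its richest cell. In the male cells the log2 ratio of Slc7a2 and the median of this list were both 0.15. Ptges, the prostaglandin E synthase, was at 162 against 79.4 CPM, or 1.83-fold without its richest cell, with a log2 ratio of -0.015 in the cells without Lcn2. Of 19 measured genes of glycolysis and hypoxia, the enolase Eno1 was higher at 260 against 117 CPM and the oxygen sensor Egln3 lower at 19.5 against 46.4, with a median of 0.38. This median was -0.037 in the cells led by Slpi. The log2 ratio of Egln3 was -0.054 in the cells without Lcn2. In 6 M DTR Egln3 was higher, at 91.0 against 21.4 CPM (4.24-fold), with 43.1% of its UMIs from 1 cell. Of 12 measured myofibroblast and cytoskeleton genes 1 was higher and 3 were lower (median -0.08), and none of the 7 genes of cell cycle arrest and senescence (median -0.15), the 2 of tryptophan and amino acid use (0.13) or the 1 of proliferation, Pcna, passed 2-fold.

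Of 36 measured genes in the list of tenocyte matrix genes, 9 were at least 2-fold lower and none was at least 2-fold higher, with a median of -0.63. Chad was at 1023 against 2883 CPM, Ogn (osteoglycin, a small proteoglycan) at 110 against 424, Ucma, a small secreted protein of cartilage-like cells, at 15.3 against 63.7 and Col11a2 at 17.2 against 47.0. Omd (osteomodulin) was outside the list and also low, at 13.8 against 53.5 CPM. Col1a1 and Col1a2, named after their values were seen, were at 2731 against 6349 and 2893 against 6411 CPM. Other matrix genes were near or above the level of the other tenocytes: Dcn was at 32550 against 33246 CPM, Prg4 at 12394 against 11140 and Thbs4, a matrix glycoprotein named after its values were seen, at 4282 against 2432. Of the tenocyte genes used in the rule, which the choice of cells partly fixes, Fmod was at 3615 against 6430 CPM, Cilp2 at 483 against 1171, Tnmd at 301 against 569 and Kera at 23.4 against 26.7.

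Of 19 measured immediate early genes, 5 were at least 2-fold lower and 1 was higher, with a median of -0.61. Fos was at 313 against 1253 CPM, Egr1 at 280 against 712, Zfp36, which speeds the decay of cytokine transcripts, at 196 against 510 and Klf2 at 57.2 against 213. Fosl1, named after its values were seen, was the higher one at 113 against 49.9 CPM. The lowest ratios of all belonged to hemoglobin. Hbb-bs was at 12.4 against 607 CPM, yet it was detected in 21.0% of the rule-positive cells and 24.7% of the others, and its UMIs in the others lay mostly in few cells: 11 of them had 50 UMIs or more, up to 7597, against 3 UMIs at most in a rule-positive cell.

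**Figure D3:**
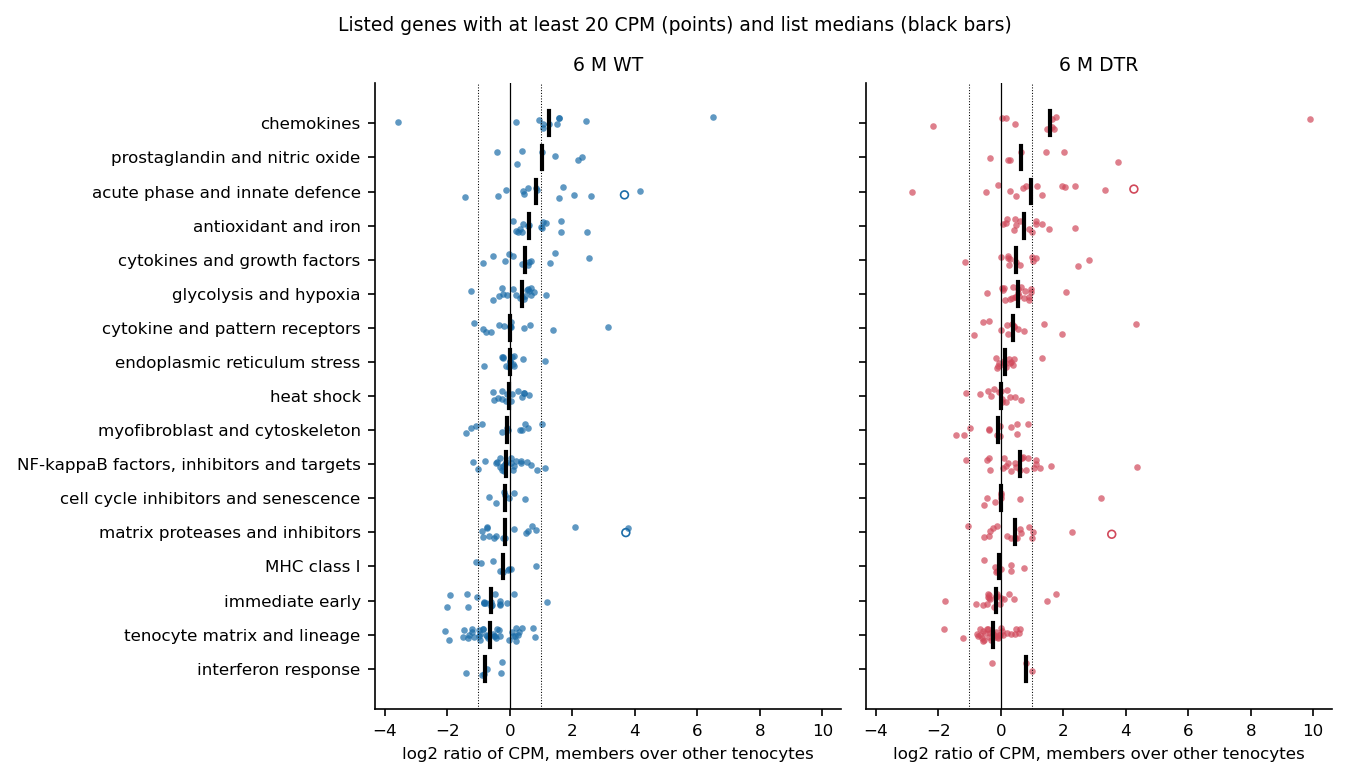
Log2 ratio of CPM, rule-positive over other tenocytes (x axis), for the genes of 17 lists with at least 20 CPM in 6 M WT (left) and 6 M DTR (right). Points are genes, open circles are Lcn2 and Mmp3, black bars are medians and dotted lines mark 2-fold. The chemokine list lies highest in both libraries, with medians of 1.27 and 1.56, and the tenocyte matrix list lies low, with medians of -0.63 and -0.26.

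Within the 105 cells the levels of Lcn2, Fth1, Timp1 and Mmp3 varied together. Spearman's rho over the 105 cells, as a description of cells that share 1 library and differ in depth, was 0.63 between the CPM of Lcn2 and Fth1, 0.61 between Lcn2 and Timp1, 0.49 between Lcn2 and Mmp3, 0.49 between Lcn2 and Saa3 and 0.44 between Lcn2 and Hmox1. It was -0.38 between Lcn2 and Chad and -0.31 between Lcn2 and Col1a1. Between Lcn2 and Slpi it was 0.13. In the cells led by Slpi and those led by Cxcl3, the chemokine Cxcl2 was at 2085 and 9771 CPM, Lcn2 at 2343 and 2190, Mmp3 at 6181 and 12112 and Chil1 at 805 and 0.

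Promoters of the most raised genes are shown because NF-kappaB and C/EBP factors act through short DNA elements near the starts of such genes. Of the 15 genes with the highest ratios, 12 had a promoter window of 300 bases around the start in RefSeq (GRCm38.p6, the mouse build of the sequence table, which need not be the build of the files). The letters TTGCNNAA, a C/EBP-type element searched on both strands, were found in the windows of 7 of the 12 genes (Csf2, Lcn2, Mmp12, Mmp3, Ptgs2, Saa3 and Slpi; 58.3%), against 12.2% of all 27025 genes. These 7 include Slpi and Csf2, which the rule used, and Mmp12, whose ratio was 1.09 without 1 cell and which has another window without a match. The NF-kappaB consensus, searched on both strands, was found in 3 (Chil1, Cxcl2 and Cxcl3; 25%), against 5.14% of all genes, and Cxcl3 is a rule gene. Without the 4 rule genes, 5 of 8 genes held the C/EBP-type letters and 2 of 8 the NF-kappaB consensus. The windows of 4 of these genes follow, with the matching letters in capitals: Slpi (chr2:164356458-164356757, minus strand), Lcn2 (chr2:32387690-32387989, minus strand) and Mmp3 (chr9:7445572-7445871, plus strand) hold the C/EBP-type letters, and Cxcl3 (chr5:90785851-90786150, plus strand) holds the NF-kappaB consensus on both strands at adjoining positions, so its capitals cover 2 overlapping matches. The first matching base lies at -241 from the start in Slpi, -216 in Lcn2, -148 in Mmp3 and -73 in Cxcl3. A match of letters is a description of the window and not a binding site.
Slpi: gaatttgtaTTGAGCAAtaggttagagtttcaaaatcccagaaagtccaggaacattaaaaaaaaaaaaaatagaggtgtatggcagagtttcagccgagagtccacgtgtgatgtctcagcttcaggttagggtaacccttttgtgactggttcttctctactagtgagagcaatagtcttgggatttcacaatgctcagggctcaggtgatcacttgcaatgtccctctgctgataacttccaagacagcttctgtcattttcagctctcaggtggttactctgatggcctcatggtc
Lcn2: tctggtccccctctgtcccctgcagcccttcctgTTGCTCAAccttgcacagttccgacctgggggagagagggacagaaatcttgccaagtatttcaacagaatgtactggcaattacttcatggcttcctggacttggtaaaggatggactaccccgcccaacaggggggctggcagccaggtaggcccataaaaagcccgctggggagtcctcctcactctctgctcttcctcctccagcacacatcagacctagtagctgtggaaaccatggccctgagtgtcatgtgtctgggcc
Mmp3: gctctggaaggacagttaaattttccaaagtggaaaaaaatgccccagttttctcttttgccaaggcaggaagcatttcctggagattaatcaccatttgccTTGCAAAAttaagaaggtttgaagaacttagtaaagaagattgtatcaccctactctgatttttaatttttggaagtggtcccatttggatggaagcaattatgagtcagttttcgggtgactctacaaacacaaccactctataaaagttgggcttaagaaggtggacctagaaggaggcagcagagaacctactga
Cxcl3: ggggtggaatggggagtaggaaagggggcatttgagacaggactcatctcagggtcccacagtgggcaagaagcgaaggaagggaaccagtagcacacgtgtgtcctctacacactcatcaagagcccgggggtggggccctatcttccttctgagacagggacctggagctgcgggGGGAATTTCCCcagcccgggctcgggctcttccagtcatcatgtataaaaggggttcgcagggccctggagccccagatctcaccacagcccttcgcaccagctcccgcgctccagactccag

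The sex of the cells was not the same in the rule-positive and the other tenocytes. Both sexes were pooled in each library, and a cell was called female when it had a UMI of Xist and none of 4 Y-linked genes, and male in the opposite case. Of the rule-positive tenocytes of 6 M WT, 90 were female and 12 male, a female share of 88.2% (80.4 to 93.8), against 71.4% (70.1 to 72.8) of the other tenocytes. Cells without a call, left out of these shares, were 3 of 105 rule-positive tenocytes and 751 of the 4950 others, which had fewer UMIs per cell. The rule-positive cells made up 2.91% of female tenocytes (2.35 to 3.57) and 0.991% of male ones (0.513 to 1.72). All of the 51 rule-positive cells of the Lcn2-high cluster with a call were female, as were 39 of 51 outside it and 96.6% of the other tenocytes inside it. Xist and the Y-linked genes had not been left out when the clusters were made. How many mice of each sex gave these cells is not known from the sources used here, so sex, mouse and litter cannot be told apart.

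The rule-positive cells with high Lcn2 were of different sexes in the 2 libraries. In 6 M WT, Lcn2 in the 12 male rule-positive cells came to 3 UMIs, all in 1 cell, or 15.1 CPM against 145 in the other male tenocytes, while in the 90 female cells it was at 2684 against 205 CPM (13.1-fold, 12.6 to 13.5). Mmp3 in 6 M WT was at 261 against 567 CPM in male and 9449 against 699 in female cells, and Saa3 at 60.3 against 308 and 3999 against 687. In 6 M DTR the 21 male cells had Lcn2 at 1800 against 80.7 CPM (22.3-fold, 20.3 to 24.5) and the 12 female cells at 39.8 against 17.3, from 9 UMIs in 2 cells. Of the cells with at least 20 UMIs of Lcn2, 42 were female and none male of 43 in 6 M WT, and none was female and 6 were male of 8 in 6 M DTR. Of the other tenocytes with at least 20 UMIs of Lcn2, 96 were female and 30 male in 6 M WT (76.2% female, 67.8 to 83.3, against 71.3% of those under 20), and 2 were female and 16 male in 6 M DTR. Slpi, which the rule used, was at 959 and 286 CPM in the female and male cells of 6 M WT and at 925 and 1158 in those of 6 M DTR, and 5 of the 12 male cells of 6 M WT had a UMI of it.

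**Figure D4:**
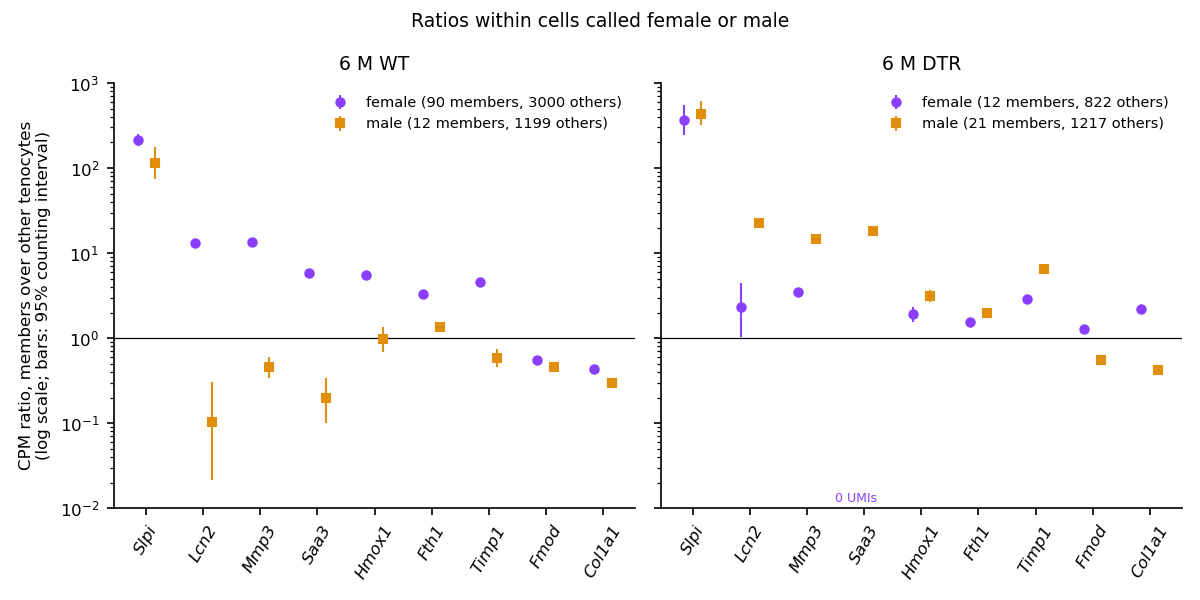
Ratio of CPM between rule-positive and other tenocytes (y axis, log scale; bars are 95% counting intervals) for 9 genes within the female and the male cells of each library. Lcn2, Mmp3 and Saa3 lie above 1 in the female and below 1 in the male cells of 6 M WT, and in 6 M DTR the male cells have the higher ratios, with no Saa3 UMI in the 12 female cells.

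Slpi was detected in 26 of the 39 rule-positive tenocytes of 6 M DTR, Csf2 in 12, Cxcl3 in 7 and Il4i1 in 5, the median rule sum was 21, and 31 cells had only 1 of the 4 genes. Of 2848 genes with at least 50 CPM, 100 (3.51%) were at least 2-fold higher and 42 (1.47%) lower. Lcn2 ranged from 0 to 191 UMIs with a median of 0 and was at 1142 against 59.5 CPM (19.2-fold), with 27 of the 39 cells at 0. Mmp3 ranged from 0 to 2463 UMIs with a median of 16 and was at 9189 against 783 CPM (11.7-fold), of which 1 cell gave 37.5%. Saa3 was found in only 4 cells and 75.6% of it in 1 cell, at 1242 against 122 CPM. Timp1 was at 1934 against 400 CPM and Slc7a2 at 451 against 110, near their ratios in 6 M WT (4.83 and 4.09 against 4.21 and 4.55). Fth1 was at 16343 against 8706 CPM, a ratio of 1.88 against 3.12 in 6 M WT, and Hmox1 at 366 against 167, a ratio of 2.18 against 5.52, of which 1 cell gave 25.7%. Nos2 stood at 273 against 20.3 CPM (13.5-fold) and Chil1 at 18.2 against 9.51, where 6 M WT had 17.99-fold. Aldh1a3 had 1 UMI in the 39 cells, a ratio of 0.23 against 9.35 in 6 M WT. Differences between the 2 libraries' ratios were not tested.

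Of the gene lists in 6 M DTR, chemokines had 6 of 10 measured genes higher and 1 lower (median log2 ratio 1.56) and acute-phase genes 7 of 14 higher and 1 lower (0.98), where 3.09% of the 5590 genes with at least 20 CPM were higher and 2.58% lower. The antioxidant and iron list had 5 of 14 higher (0.76) and the NF-kappaB list 6 of 23 higher and 1 lower (0.62, against -0.11 in 6 M WT). The tenocyte matrix list had 2 of 34 lower and none higher, with a median of -0.26 against -0.63 in 6 M WT. Chad was at 1814 against 2689 CPM and Fmod at 5032 against 6185. Ucma had a ratio of 1.39 (0.76 to 2.36) from 14 UMIs, of which 64.3% lay in 1 cell. For Col11a2 the ratio was 1.29 (0.58 to 2.48) from 9 UMIs, of which 55.6% lay in 1 cell, so neither showed a direction. Fmod and Col1a1 stood at 8049 against 6207 CPM and 11257 against 5089 in the 12 female cells, and at 3400 against 6163 and 2820 against 6704 in the 21 male cells. Of 21 measured immediate early genes 2 were higher and 1 was lower, with a median of -0.15, and Fos was at 1524 against 2279 CPM. The interferon list had 1 of 3 measured genes higher and none lower, with a median of 0.82.

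**Figure D5:**
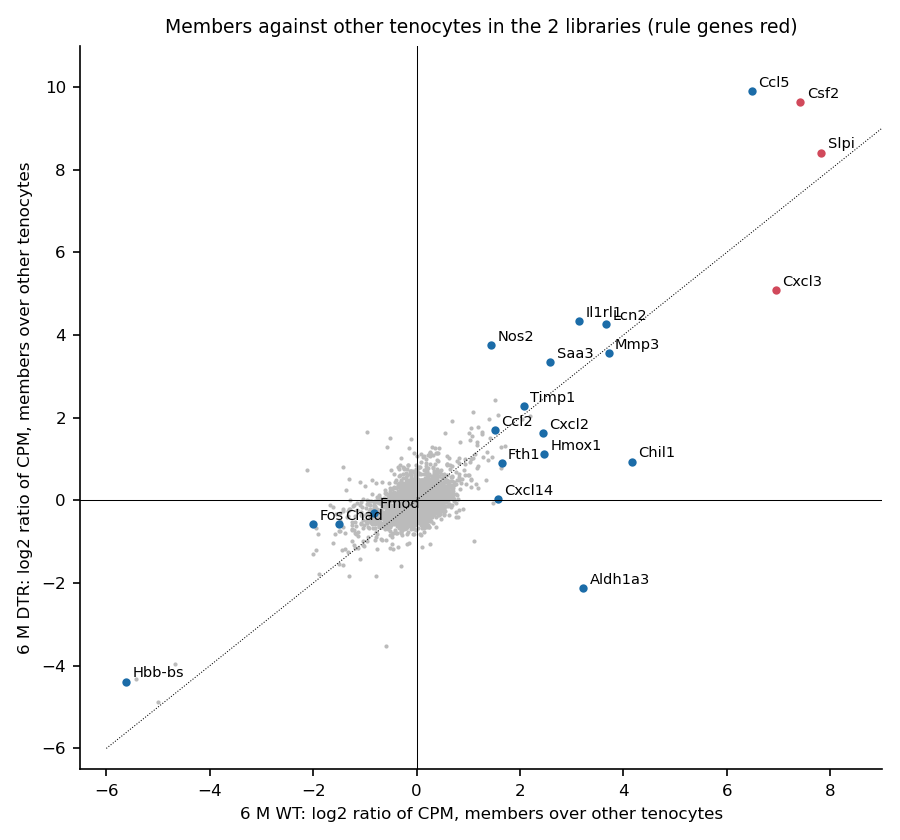
Log2 ratio of CPM between rule-positive and other tenocytes in 6 M WT (x axis) and 6 M DTR (y axis) for genes with at least 50 CPM in both libraries (gray), with named genes marked at any level and rule genes in red; the dotted line is equality. Lcn2, Mmp3, Timp1 and Ccl2 lie near the line, Nos2 and Ccl5 above it, and Hmox1, Chil1 and Aldh1a3 below it.

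Single cells weighed heavily in 6 M DTR. Ccl5 stood at 1552 against 1.62 CPM there, and 2 cells with 540 and 399 UMIs held most of its 1108 UMIs. These 2 cells had 51 and 52 UMIs of Slpi, 10 and 15 of Csf2, 114 and 83 of Lcn2 and 792 and 703 of Mmp3, and their profiles were the most alike of any pair of the 39, with a correlation of log values of 0.851 over all genes, where the next pair had 0.821. Another cell, with 252 UMIs, gave 79.0% of the UMIs of Il1rl1. The cell with the highest Csf2 count, 69 UMIs, also had 41 UMIs of T and NK cell markers, among them 7 of Ptprc, the common antigen of white blood cells. Apart from these it had 8 UMIs of Kit, a mast cell marker, and 346 UMIs of the 4 tenocyte genes. A second cell had 13 UMIs of Trdc, a T cell receptor gene. Without these 2 cells the level of Csf2 in the rule-positive cells was 377 CPM instead of 447 and that of Lcn2 1102 instead of 1142, and whether other cells shared their droplets was not tested.

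The 21 M B6 library had 3 rule-positive cells among 937 tenocytes (0.320%, 0.0661 to 0.933). In 2 of them the rule sum came from Slpi, with 22 and 11 UMIs, and in the other from 181 UMIs of Cxcl3. The Cxcl3 cell had 42 UMIs of Lcn2, 275 of Cxcl2, 162 of Il6 and 1136 of Ccl2 among 32362 UMIs, and the cell with 11 UMIs of Slpi had 71 UMIs of Mmp3. Csf2 and Il4i1 were at 0 in all 3. With 3 cells no further comparison was made. In the tenocytes that were not rule-positive, Lcn2 was at 191 CPM (6 M WT), 59.5 (6 M DTR) and 50.9 (21 M B6), and Saa3 was at 584, 122 and 329 in the same order of libraries. Mmp3 had the reverse order of Lcn2, at 652, 783 and 892. With 1 library a group, nothing separates these levels from the spread between libraries.

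Rule genes were not particular to tenocytes. In 6 M WT a sum of at least 5 was reached by 124 of 595 myeloid cells (20.8%), in which the 4 genes together stood at 1372 CPM, by 21 of 955 epitenon cells (2.20%), by 1 of 215 vascular cells and by none of 117 T cells, which allows up to 3.10% of T cells. These classes were set by marker sums after the data had been seen. Free RNA from other cells can leave single UMIs in any cell, and Slpi was detected in 4.95% of tenocytes (median depth 13089 UMIs) against 1.71% of T cells (10068 UMIs), which should lack it, 1.78% of epitenon cells (16299 UMIs) and 2.79% of vascular cells (10370 UMIs). Myeloid cells had the highest share, 9.41% (16588 UMIs), with Slpi at 247 CPM against 30.5 in tenocytes. The T cell share was 2 of 117 cells (0.208 to 6.04). In the tenocytes that were not rule-positive, Slpi was detected in 3.56%. A single UMI of Slpi is therefore read here as near background.

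Markers of other cells were counted in the rule-positive tenocytes of 6 M WT. The rule had already limited the myeloid genes Tyrobp and Fcer1g to at most 2 UMIs. It had also weighed 6 of the 12 epitenon markers against the tenocyte genes. Low counts of markers of myeloid and epitenon cells were thus partly fixed by the choice of cells. The 12 macrophage markers summed to 62.0 CPM against 39.6 in the other tenocytes, with Lyz2 the most abundant at 13.3 CPM and none at 0. Their sum was 27.6 CPM in the 52 cells inside the Lcn2-high cluster and 107 in the 53 outside, against 43.4 and 39.4 in the other tenocytes inside and outside it. Of the 130 UMIs of these markers, 77 lay in 2 cells, 72 of them in 1 cell. Without these 2 cells, left out after their values were seen, the sum was 25.8 CPM, Lcn2 was at 2387 instead of 2429 CPM, Mmp3 at 8389 instead of 8559 and Saa3 at 3207 instead of 3509, while Tnf was at 8.26 instead of 51.0 CPM. The 13 neutrophil markers summed to 44.8 against 38.6 CPM, of which Camp gave 28.6, and 8 of them, Ly6g, Mpo, Elane, Csf3r and Cxcr2 included, were at 0. Of the UMIs of Camp, 51.7% lay in 1 cell. Il1b was also higher, at 10.0 against 3.32 CPM. S100a8 was lower at 1.91 against 7.30 CPM, S100a9 at 1.91 against 13.3 and G0s2 at 2.38 against 4.89. All 8 mast cell markers were at 0, as were 8 of 10 T and NK cell markers, which summed to 1.91 against 8.01 CPM. The 10 endothelial and mural markers summed to 5.72 against 31.1 CPM, with Rgs5 the most abundant and 5 at 0, among them Pecam1 and Cdh5, which the rule had set to 0. The 11 keratinocyte markers summed to 51.0 against 47.8 CPM, with Sfn the most abundant and 7 at 0, the 11 Schwann cell and muscle markers to 36.7 against 110, with Mbp the most abundant and 4 at 0, and the 12 epitenon markers to 1497 against 2574, with Ly6c1 the most abundant and none at 0. In 6 M DTR the T and NK cell markers stood at 81.2 against 11.5 CPM, most of it in the 2 cells described above. Of the cell barcodes, 15 were shared between the kept cells of 6 M WT and 6 M DTR, 14 between 6 M WT and the aged library and 13 between 6 M DTR and the aged library. A single rule-positive barcode of 6 M WT was also a kept cell of 21 M B6, and no barcode was rule-positive in more than 1 library.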

How the data were processed

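Single-cell 3′ libraries of pooled flexor digitorum longus tendons were deposited by the authors as 1 matrix of raw UMI counts per library. The labels name Cell Ranger 2.1.1 and the matrix headers cellranger 6.0.1. The build and annotation behind the counts were not given in the sources used here. The counts were used as deposited, as sums of UMIs per set of cells in CPM, with ratios of CPM between rule-positive and other tenocytes and exact 95% intervals for ratios of Poisson counts and for binomial shares (Clopper-Pearson). These intervals cover counting error only. With 1 library a group no differential test was run. Genes with at least 50 CPM in either set were compared, genes of lists with at least 20, and mitochondrial genes were left out.

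The named genes were the rule and marker genes, the 15 highest and 10 lowest ratios, the 5 most abundant genes and up to 4 genes with the largest absolute log2 ratio per list in 6 M WT; others are said to be named after their values were seen. The rule, the gene lists and the settings were chosen with earlier results of these data known. Cells were thinned at random to 2000 UMIs for shares of positive cells and to 5000 for the rule. For the latter, kept cells of any type under 5000 UMIs were left out, which were 477 in 6 M WT, 483 in the DTR library and 212 in the aged library. Tenocytes were then called anew on the thinned counts. Clustering (leidenalg 0.10.2) used 2000 variable genes, 20 principal components, 20 neighbours and resolution 0.5. The 4 rule genes, Lcn2, Mmp3 and mitochondrial genes were left out of it. Scrublet (scanpy 1.11.5) called 1 cell per library a doublet, which was read as a failed call, and no cell was removed. The numbers of kept cells equal those the study gives for 6 M DTR and 21 M B6 and differ by a few cells for 6 M WT. TMM factors came from edgeR 4.0.16. Ratios were checked on simulated counts. Promoter windows were taken from RefSeq (GRCm38.p6). Cxcl11 and Mx1 of the lists had no row.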

Additional observations from a re-analysis of the deposited data

Results flagged for a closer look

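Some tenocytes with more than 5000 detected genes, which lie outside the kept range, also reached the rule sum, and a rule on raw UMIs selects for depth. In 6 M WT 29 of 228 such cells did (12.7%, 8.69 to 17.8, where 3 cells, the floor set for such shares, are 1.32%), and their Lcn2 stood at 2236 CPM. In 6 M DTR 14 of 150 did (9.33%, 5.197 to 15.2, where 3 cells are 2%). In 21 M B6 1 of 32 did (3.13%, 0.0791 to 16.2), and it had no UMI of Lcn2.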

How the results depend on the processing

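No paired analysis was possible because each group is 1 library. The share of rule-positive cells among 6 M WT tenocytes (2.08%) was 2.95% with a rule sum of at least 3, 1.33% with at least 10, 0.336% with at least 2 of the 4 genes, 2.54% without an upper limit on genes and 0.520% after thinning. That of 6 M DTR (1.51%) was 0.310% with at least 2 genes and 0.887% after thinning, and that of 21 M B6 (0.320%) was 0 with at least 2 genes. The 64 higher genes of 6 M WT became 161 with at least 2 of the 4 genes, 132 in male cells, 98 at 20 CPM and 29 at 200 CPM, and the 87 lower ones became 55 with a sum of at least 3, 135 with at least 10, 322 with at least 2 genes, 145 in male cells, 170 at 20 CPM and 33 at 200 CPM. Against 525 other tenocytes matched on UMIs they were 48 and 80. Settings chosen after seeing the data gave 116 higher and 155 lower genes for cells not led by Slpi, 110 and 273 for cells with at least 20 UMIs of Lcn2, 55 lower ones for cells without Lcn2, and 40 higher ones with the richest cell of each gene left out, where the share of higher genes among those past 2-fold went from 42.4% to 25.5%.

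The 101 named genes gave 1800 values under up to 18 settings (14 genes had fewer, at least 16). Of these 1135 moved by less than their counting error, 641 by more, and 24 turned direction in genes past 2-fold; with the genes under 2-fold, 60 values changed sign. In male cells, which were 12, the log2 ratios turned to -3.27 for Lcn2, -1.12 for Mmp3, -2.35 for Saa3, -0.72 for Aldh1a3, -0.040 for Hmox1, -0.65 for Cfb, -1.27 for Ereg, -0.76 for Timp1, -0.15 for Srxn1, 0.22 for Tpm2 and 0.013 for Gbp7. Tnf turned to -0.079 with at least 2 genes, -0.16 without the highest Scrublet scores, -0.18 in female cells, -0.128 in cells led by Slpi and -0.11 without its richest cell. In cells without Lcn2 the values were -0.14 for Ptgs2, -1.13 for Cfb, -0.59 for Cxcl14, -0.074 for Ereg, -0.082 for Lif and -0.015 for Ptges. Cxcl3 was at -0.29 in cells led by Slpi and Camp at -1.97 with at least 2 genes. The median of the acute-phase list turned negative under 2 of 19 settings, down to -1.38 in male cells, and those of the chemokine, antioxidant and tenocyte matrix lists changed sign under none of these 19. That of the NF-kappaB list changed sign under 5 of them, up to 0.37 in male cells. The causes were not tested. Depth limits the shares, since the rule is a fixed number of UMIs.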
